A study of Mus musculus with 6 samples.

Results

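The 10 genes described here are 7 transcription factor genes of the trophectoderm (Cdx2, Elf5, Tfap2c, Tfap2a, Gata3, Hand1 and Tead4) and the 3 simple epithelial keratin genes Krt8, Krt18 and Krt19. They were taken by name from the 21071 genes of the tables, and for each the RefSeq transcript with the most counts over the 6 libraries was used. The RNA came from V6.5 cells, a line of mouse embryonic stem cells (ESCs), 5 days after infection with lentiviral constructs that each express a short hairpin RNA (shRNA). The libraries were 1 for an shRNA against GFP, which served as the control, 1 for an shRNA against SMC1, 2 for CAPH2 and 2 for SMC2. SMC1 is a core subunit of cohesin, CAPH2 belongs to condensin II, and SMC2 is a subunit shared by condensin I and condensin II. The CAPH2 libraries were made with different hairpins, as were those for SMC2, so #1 and #2 below name hairpins and the spread between them is a spread between hairpins. All cells, the GFP control included, were infected and then selected in puromycin, for which the sample labels give 0.5 and then 1 µg/ml for 48 hr each. The ESCs had been kept on irradiated fibroblasts, which a plating step served to remove before infection, and each library was made from the RNA of 652000 cells.

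The trophectoderm is the outer epithelium of the blastocyst, from which the placenta forms, and it separates early from the inner cell mass that ESCs represent. In the embryo TEAD4, with the Hippo pathway coactivators YAP1 and WWTR1, acts upstream of CDX2 and GATA3, and these factors with TFAP2C, EOMES and ELF5 make up a network that is kept off or incomplete in ESCs. KRT8 is a type II and KRT18 and KRT19 are type I keratins, and type I and type II keratins pair to form the intermediate filaments of simple epithelia, the trophectoderm among them.

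The values are RPKM, that is, exonic reads per kilobase of transcript, scaled to the reads of the library, which allows levels to be compared between genes as well as between libraries. They rest on 18823246 to 23324535 reads per library. The targeted transcripts were checked first. Smc1a had an RPKM of 36.1 with the GFP hairpin and 14.4 with the SMC1 hairpin. Ncaph2, which encodes CAPH2, had 80.2 with GFP and 16.9 and 27.9 with the CAPH2 hairpins. It was also below GFP in the SMC1 library, at 54.0, and with the SMC2 hairpins, at 63.9 and 64.9. The SMC1 library thus held less of this condensin II transcript as well. Smc2 had 26.6 with GFP and 18.8 and 19.1 with the SMC2 hairpins, and 40.6 to 42.3 in the SMC1 and CAPH2 libraries. GFP and SMC1 were each sequenced in a single library, and so no p-value goes with a change against GFP except in a fit that assumes their spread, which is given after them. They are given with exact binomial 95% intervals that cover counting error only, and a gene is called changed at 2-fold or more. Nothing in the labels says that the libraries of a target came from separate cultures.

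Depletion of SMC1 went with large changes in opposite directions among these genes. Of the 9 genes with a mean of at least 10 counts per library, 5 were at least 2-fold higher (Cdx2, Gata3, Krt8, Krt18 and Krt19) and 2 were at least 2-fold lower (Tfap2c and Tead4) than in the GFP library. Over all 14334 genes with that minimum, 12.3% were as much higher and 8.67% as much lower. The median log2 change of the 9 genes was 1.04, beside 0.02 over all genes. With CAPH2 or SMC2 depletion 1 of the 9 was called higher, Cdx2 in each case, and 0 were called lower. The shares over all genes were 2.18% higher and 0.774% lower for CAPH2, and 1.48% higher and 0.663% lower for SMC2.

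**Figure D1:**
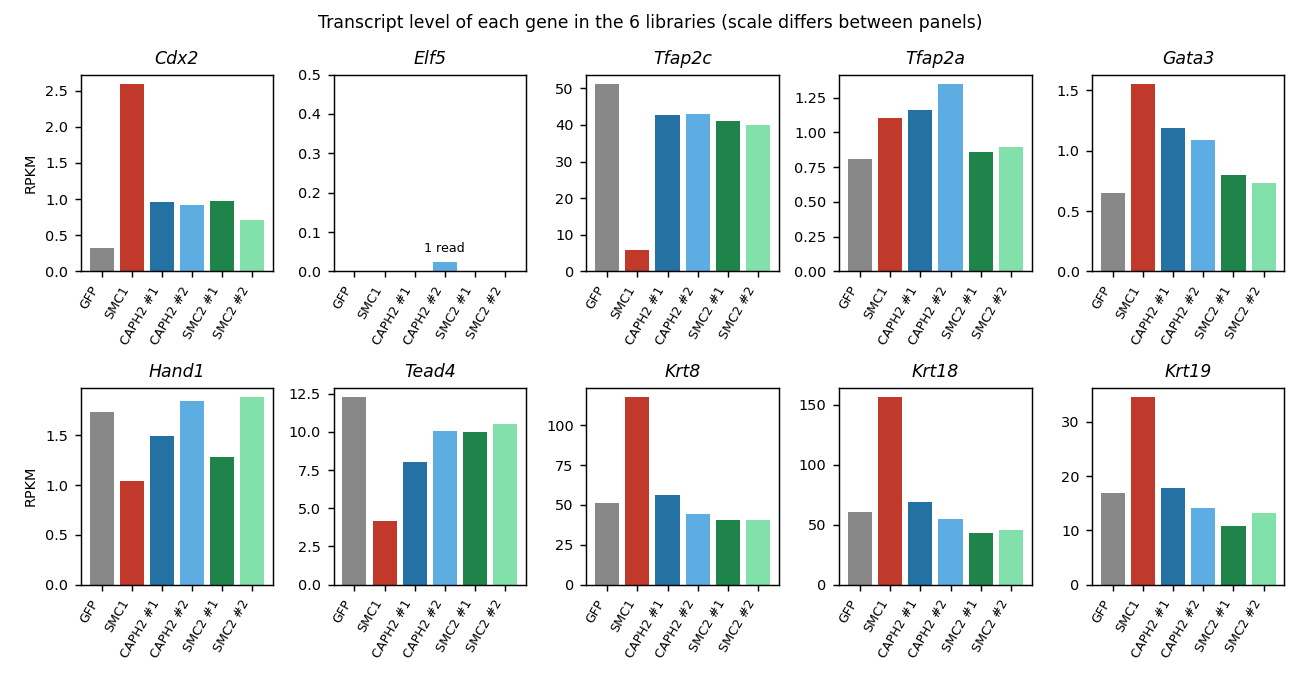
Bars give the deposited RPKM of each gene (vertical axis, scale set per panel and starting at 0) in the 6 libraries (horizontal axis). The red SMC1 bar is the highest for Cdx2, Gata3, Krt8, Krt18 and Krt19 and the lowest for Tfap2c, Tead4 and Hand1, and for Elf5 a single read was counted in CAPH2 #2.

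The promoters of 3 genes are shown, chosen after the values were seen: that of Cdx2, which had the largest rise with SMC1 depletion, and those of the neighbours Krt8 and Krt18, which rose together. The gene set holds AP-2, TEAD and GATA factors, so their motifs were looked for. Each is the 250 bases before the transcription start, read 5′ to 3′ on the strand of the gene, from the RefSeq promoter set (build GRCm38.p6). Each matched mm9 (NCBI build 37) at a single place, which is the position given. Capitals mark motif matches.
Cdx2, chr5:148118826-148119075, minus strand: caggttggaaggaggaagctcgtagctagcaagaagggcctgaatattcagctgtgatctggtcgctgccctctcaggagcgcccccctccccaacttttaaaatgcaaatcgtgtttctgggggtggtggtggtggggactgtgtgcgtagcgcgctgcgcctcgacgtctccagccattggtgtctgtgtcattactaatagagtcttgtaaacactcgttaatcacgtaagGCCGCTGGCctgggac
Krt8, chr15:101834774-101835023, minus strand: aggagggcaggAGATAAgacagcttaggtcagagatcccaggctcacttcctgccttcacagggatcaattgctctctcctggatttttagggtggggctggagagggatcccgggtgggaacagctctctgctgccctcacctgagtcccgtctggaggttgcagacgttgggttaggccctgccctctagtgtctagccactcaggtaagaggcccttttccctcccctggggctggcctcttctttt
Krt18, chr15:101858397-101858646, plus strand: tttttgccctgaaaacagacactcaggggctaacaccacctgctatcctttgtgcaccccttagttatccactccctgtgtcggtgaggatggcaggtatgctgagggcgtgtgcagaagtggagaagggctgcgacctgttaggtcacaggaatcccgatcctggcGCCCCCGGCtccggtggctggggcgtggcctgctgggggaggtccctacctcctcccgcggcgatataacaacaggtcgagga

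Both strands were searched for the AP-2 motif, spelled GCCNNNGGC and the same on either strand, for the TEAD motif, spelled GGAATG, for the motif of GATA factors, spelled AGATAA, and for the box upstream of many start sites, spelled TATAAA. No matches in these windows overlapped. The capitals in Cdx2 are an AP-2 match that begins 16 bases before the start, those in Krt18 an AP-2 match that begins 83 bases before it, and those in Krt8 a GATA match 239 bases before it. The Gata3 window, not printed, held 3 AP-2 matches. Of 32851 promoter windows of the same length, 13.7% held the AP-2 letters, 12.6% the TEAD letters, 9.99% those of GATA factors and 12.4% those of the box, so such matches are common. Neither the TEAD letters nor those of the box were found in the windows of Cdx2, Gata3, Krt8 or Krt18. An Elf5 window held a TEAD match that begins 173 bases before the start, and the Tfap2a windows held no match of any of these motifs. Promoter entries were found for 6 of the 10 genes. Those without an entry were Tfap2c, Hand1, Tead4 and Krt19.

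Cdx2 (NM_007673, chromosome 5 from 148112476 to 148118825, minus strand, mm9), the homeobox factor that fixes trophectoderm fate, had an RPKM of 0.325 with GFP, 2.59 with SMC1, 0.959 and 0.916 with CAPH2 #1 and #2, and 0.973 and 0.708 with SMC2 #1 and #2. It was lowest in the GFP library and highest in the SMC1 library, and the 4 condensin libraries lay close together between them. These levels rest on 15 reads with GFP, 107 with SMC1 and 31 to 48 in the others. The rise over GFP was 7.98-fold with SMC1 (95% counting interval 4.63 to 14.8). It was 2.95-fold (1.63 to 5.68) and 2.82-fold (1.51 to 5.53) with the CAPH2 hairpins, and 2.99-fold (1.64 to 5.76) and 2.18-fold (1.14 to 4.34) with the SMC2 hairpins. All 5 folds are taken against the same 15 reads and are not independent of each other. Against the mean of the 4 condensin libraries, a reference chosen after the values were seen, Cdx2 was 2.92-fold higher with SMC1 (2.25 to 3.73). Even in the SMC1 library its level stayed far below that of the keratins. Between the CAPH2 and SMC2 hairpins Cdx2 was not told apart, with RPKM values of 0.938 ± 0.030 and 0.841 ± 0.187 (SD, n = 2 hairpins each).

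Gata3 (NM_008091, chromosome 2 from 9778705 to 9800227, minus strand), a zinc finger factor that acts beside CDX2 in the trophectoderm, was likewise lowest with GFP and highest with SMC1, at a low level. Its RPKM was 0.650 with GFP, 1.55 with SMC1, 1.19 and 1.09 with the CAPH2 hairpins, and 0.801 and 0.731 with the SMC2 hairpins. All 4 condensin values lay between those of GFP and SMC1, and the CAPH2 values did not overlap those of SMC2. The fold over GFP was 2.39 with SMC1 (1.66 to 3.48), 1.83 (1.26 to 2.67) with CAPH2 #1 and 1.68 (1.13 to 2.51) with CAPH2 #2. With SMC2 #1 and #2 it was 1.23 (0.820 to 1.86) and 1.12 (0.733 to 1.73), which was not told apart from no change at this depth. The rise of Cdx2 with SMC1 exceeded that of Gata3 by 1.74 on the log2 scale (95% counting interval 0.81 to 2.67). Against the 4 condensin libraries Gata3 was 1.63-fold higher with SMC1 (1.27 to 2.06) and so was not called.

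Tead4 (NM_011567, chromosome 6 from 128177161 to 128250831, minus strand), the DNA-binding partner of YAP1 that lies upstream of Cdx2 in the embryo, moved the other way. Its RPKM was 12.3 with GFP, 4.14 with SMC1, 8.04 and 10.1 with the CAPH2 hairpins, and 9.96 and 10.5 with the SMC2 hairpins. The GFP library was the highest and the SMC1 library the lowest, with no overlap with the condensin libraries. With SMC1 0.338 of the GFP level was left (0.292 to 0.390). With CAPH2 #1 and #2 it was 0.656 (0.588 to 0.730) and 0.821 (0.737 to 0.914), and with SMC2 #1 and #2 0.812 (0.732 to 0.900) and 0.856 (0.771 to 0.949). Tead4 was a small part of the TEAD family, at 5.08% to 6.43% of the summed RPKM of Tead1 to Tead4 in the other 5 libraries and 1.97% in the SMC1 library. Tead2, the most abundant family member, had an RPKM of 148.4 with GFP and 145.9 with SMC1, a log2 change of -0.02 (-0.08 to 0.03).

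Tfap2c (NM_009335, chromosome 2 from 172375093 to 172384119, plus strand) encodes the AP-2γ factor, which acts in trophoblast and in germ cells and is also made in ESCs. It had the largest fall of the set. Its RPKM was 51.2 with GFP and 5.85 with SMC1, on 3123 and 319 reads. With the CAPH2 hairpins it was 42.7 and 43.0, and with the SMC2 hairpins 41.0 and 40.0. The SMC1 library stood alone, while the 4 condensin libraries lay within a narrow range under the GFP library. The level left with SMC1 was 0.114 of GFP (0.102 to 0.128), a log2 change of -3.13, and 0.50% of all genes with the count minimum had a lower log2 value. With the condensin hairpins 0.782 to 0.839 of the GFP level was left, with all 4 counting intervals below 1. The log2 change of Tfap2c with SMC1 was lower than that of Tead4 by a difference of -1.56 (-1.83 to -1.30). For 34.7% of the bases of the Tfap2c transcript, mm9 holds 1 other place with at least 95% identity over at least 50 bases, so part of its reads could have been placed there.

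Tfap2a (NM_001122948, chromosome 13 from 40811044 to 40825812, minus strand) encodes AP-2α, a related factor of trophoblast, surface ectoderm and neural crest. Its RPKM was 0.806 with GFP, 1.10 with SMC1, 1.16 and 1.35 with the CAPH2 hairpins, and 0.855 and 0.897 with the SMC2 hairpins. The highest values were those of the CAPH2 libraries, and it was the only gene of the 9 whose SMC1 value lay within the range of the other 5 libraries. Its fold over GFP was 1.37 with SMC1 (0.940 to 2.00), 1.44 with CAPH2 #1 (1.01 to 2.06) and 1.67 with CAPH2 #2 (1.17 to 2.41). As Tfap2c fell, its share of the summed RPKM of Tfap2a to Tfap2e was 72.9% in the SMC1 library, against 95.6% to 98.0% in the other 5. Tfap2c thus remained the most abundant AP-2 transcript in every library.

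Hand1 was low in every library and Elf5 was close to 0. Hand1 (NM_008213, chromosome 11 from 57642215 to 57645649, minus strand), a bHLH factor of trophoblast giant cells and of mesoderm, had an RPKM of 1.74 with GFP, 1.04 with SMC1, 1.49 and 1.85 with the CAPH2 hairpins, and 1.29 and 1.88 with the SMC2 hairpins. The SMC1 value was the lowest, at 0.599 of GFP (0.393 to 0.901), while the condensin libraries lay on both sides of GFP and none was told apart from it. Scaled to the ERCC synthetic RNAs the SMC1 change of Hand1 turned from -0.74 to 0.13 on the log2 scale. Elf5 (NM_010125, chromosome 2 from 103264225 to 103291143, plus strand), a factor of the trophoblast stem cell network, had 1 read in CAPH2 #2 and 0 reads in each of the other 5 libraries. The limit that a count of 0 allows, which is 3 counts, would correspond to an RPKM of 0.058 to 0.072 in these libraries, so Elf5 was not detectable at this depth. It did not pass the count minimum and enters no fold.

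Krt8 and Krt18 were, with Tfap2c, the most abundant genes of the set in the GFP library, and all 3 keratins were higher with SMC1. Krt8 (NM_031170, chromosome 15 from 101827142 to 101834773, minus strand) had an RPKM of 51.4 with GFP, 117.5 with SMC1, 56.5 and 44.5 with the CAPH2 hairpins, and 40.2 and 40.4 with the SMC2 hairpins. Krt18 (NM_010664, chromosome 15 from 101858647 to 101862457, plus strand) had 61.0 with GFP, 156.4 with SMC1, 69.4 and 54.5 with CAPH2, and 43.0 and 45.3 with SMC2. Krt19 (NM_008471, chromosome 11 from 100002126 to 100007233, minus strand) had 16.9 with GFP, 34.5 with SMC1, 17.9 and 14.2 with CAPH2, and 10.8 and 13.3 with SMC2. All 3 genes had the same order of libraries, with SMC1 on top, then CAPH2 #1, GFP, CAPH2 #2 and both SMC2 libraries. Krt8 and Krt18 are neighbours that point away from each other, with start sites 23.9 kb apart, and Krt19 lies on another chromosome.

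The fold over GFP with SMC1 was 2.29 for Krt8 (2.17 to 2.42), 2.57 for Krt18 (2.43 to 2.71) and 2.05 for Krt19 (1.84 to 2.29). The summed RPKM of the 3 keratins was 308.4 in the SMC1 library and 94.1 to 143.8 in the other 5. The log2 change of Krt18 with SMC1 exceeded that of Krt8 by 0.16 (95% counting interval 0.05 to 0.28) and that of Krt19 by 0.32 (0.15 to 0.50), so the rise was near but not equal among them. The ratio of Krt18 to Krt8 RPKM was 1.33 in the SMC1 library and 1.07 to 1.23 in the other 5. Against the mean of the 4 condensin libraries the SMC1 folds were 2.59 for Krt8 (2.47 to 2.67), 2.95 for Krt18 (2.82 to 3.05) and 2.46 for Krt19 (2.26 to 2.66), so the rise was as large without the GFP library. Mm9 holds 1 other place that covers 96.0% of the bases of the Krt8 transcript with at least 95% identity, and reads that fit both places were assigned to 1 of them. The Krt8 level is therefore uncertain. No such place was found for Krt18 or Krt19.

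With condensin depletion the keratins moved little, and not in the same direction for every hairpin. With CAPH2 #1 the log2 changes were 0.14 for Krt8, 0.19 for Krt18 and 0.09 for Krt19, and with CAPH2 #2 they were -0.21, -0.16 and -0.25. The CAPH2 hairpins thus lay on opposite sides of GFP. With SMC2 all 3 were below GFP for both hairpins, at -0.35 and -0.34 for Krt8, -0.50 and -0.43 for Krt18, and -0.64 and -0.34 for Krt19, with every counting interval below 0. Scaled to the ERCC RNAs the 3 SMC2 changes turned to 0.25, 0.14 and 0.11, beside a median of 0.59 over all genes, although Krt19 with SMC2 #1 stood at -0.0045.

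**Figure D2:**
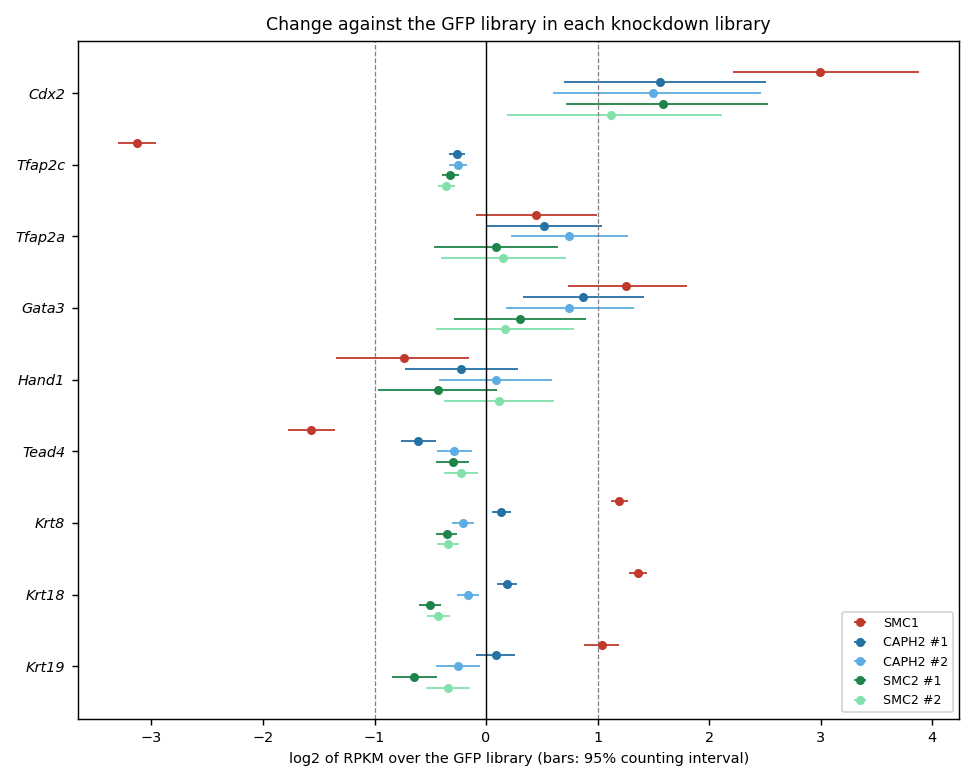
Points give the log2 of the RPKM over that of the GFP library (horizontal axis) for 9 genes (vertical axis) in the 5 knockdown libraries, and bars are 95% counting intervals. Dashed lines mark 2-fold. With SMC1 Tfap2c stands at -3.13 and Cdx2 at 3.00, and the 3 keratins lie at 1.04 to 1.36 while their condensin values lie between -0.64 and 0.19.

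Since every fold shares the GFP library, the SMC1 library was also compared with the range of the other 5. It lay above that range for 5 of the 9 genes (37.5% of all genes did so) and below it for 3 (34.8% of all genes). Together 8 of 9 were outside, beside 72.3% of all genes, so lying outside the range was common in this library. The sizes of the Cdx2 and Tfap2c changes were less common, since 0.62% of all genes had a higher log2 change against GFP than Cdx2 and 0.50% a lower one than Tfap2c. Against the mean of the 4 condensin libraries 4 of the 9 were at least 2-fold higher with SMC1 and 2 at least 2-fold lower. Over all genes it was 8.70% and 5.84%. Gata3 was the gene lost from the calls. The 4 condensin libraries all lay above GFP for 3 of the 9 genes, Cdx2, Gata3 and Tfap2a (33.0% of all genes), and all below it for Tfap2c and Tead4 (35.0%). The SMC1 library lay above and both SMC2 libraries below GFP for 3, the keratins (9.67%).

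An edgeR fit over all 6 libraries gives a test against GFP only on the assumption that the lone GFP and SMC1 libraries vary as the CAPH2 and SMC2 libraries do. With SMC1 it called the 5 genes named above higher and the same 2 lower, where 24.0% and 23.9% of all genes were called, and the log2 changes of the 7 had standard errors of 0.11 to 0.39. With CAPH2 it called 1 of the 9 higher, Cdx2 (adjusted p = 0.0453), and 0 lower, beside 4.62% and 3.18% of all genes. With SMC2 it called 0 higher and 1 lower, Tfap2c (adjusted p = 0.0476), beside 3.99% and 2.40%, and the adjusted p of Cdx2 was 0.0656.

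CAPH2 and SMC2 each had 2 libraries and could be tested against each other. By edgeR's quasi-likelihood test with Benjamini-Hochberg adjustment, 2 of 14409 genes (0.0139%) had an adjusted p under 0.05, and these were the targets Smc2 and Ncaph2. None of the 9 genes was called, each with an adjusted p of 0.999. At an unadjusted p under 0.05 there were 5 of the 9 (Krt8, Krt18, Krt19, Gata3 and Tfap2a) and 443 of all genes (3.07%), and DESeq2 called 6 genes in all and 0 of the 9. The log2 difference, CAPH2 minus SMC2, was 0.48 (SE 0.11, unadjusted p = 0.00123) for Krt18, with RPKM values of 61.9 ± 10.5 and 44.2 ± 1.60 (SD, n = 2 hairpins each). It was 0.32 (SE 0.10) for Krt8, 0.41 (SE 0.14) for Krt19, 0.56 (SE 0.21) for Gata3 and 0.50 (SE 0.21) for Tfap2a. For 6 of the 9 both CAPH2 libraries lay above both SMC2 libraries, which 17.3% of all genes did. For 0 of the 9 both lay below, beside 13.3% of all genes. Without CAPH2 #2 the 3 keratins were called, among 326 genes in all. With the hairpin number as a block Krt8 and Krt18 were called, among 64.

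The other genes of the pathways were described from lists, by their counts and medians with SMC1, beside the 12.3% higher and 8.67% lower of all genes. Of 17 genes of the Hippo pathway and TEAD partners 6 were at least 2-fold higher and 0 lower (median log2 change 0.59). They included Lats2, a kinase that restrains YAP1, from an RPKM of 1.92 with GFP to 11.3 with SMC1, and the YAP1-binding angiomotin genes Amot, from 3.77 to 14.2, and Amotl2, from 34.6 to 96.9. Yap1 itself had 65.6 and 78.1, a log2 change of 0.25 (0.20 to 0.30). With CAPH2 and with SMC2 0 of the 17 were called. Of 10 other regulators of trophectoderm and trophoblast stem cells that passed the minimum, 4 were higher and 1 was lower (median -0.13). Fgfr2, the receptor through which FGF4 sustains trophoblast stem cells, went from 2.70 to 7.66, and the HLH inhibitor gene Id2 from 24.9 to 58.3. Klf5, which acts in both ESCs and trophectoderm, went from 70.1 to 31.4. Tfap2e and Hand2 were also higher, at an RPKM under 1 in every library and on 8 reads each with GFP. These 2 of the 10 were called higher with CAPH2 and with SMC2 as well, and 0 were called lower. Their log2 changes were 1.44 and 1.60 with CAPH2, and 1.32 and 1.16 with SMC2. Tfap2e had an RPKM of 0.729 (36 reads) with CAPH2 #1 and 0.226 (9 reads) with CAPH2 #2, beside 0.176 with GFP. Its call with CAPH2 thus rested on CAPH2 #1. Hand2 had 0.457 and 0.285 with SMC2 #1 and #2, beside 0.166 with GFP, and was past 2-fold with SMC2 #1 only. Over all genes 2.18% were called higher with CAPH2 and 1.48% with SMC2.

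Markers of differentiated trophoblast were mostly at or near 0. Of 15 listed, 8 did not pass the count minimum and 6 had 0 reads in all 6 libraries. Of the 7 that passed, 2 were higher with SMC1 and 1 was lower (median -0.56). Ascl2, which marks the ectoplacental cone and spongiotrophoblast, went from an RPKM of 5.74 with GFP to 1.16 with SMC1, and was 2.26 to 2.80 in the condensin libraries. The imprinted gene Peg10 went from 30.5 to 105.4 and Phlda2, also imprinted, from 134.6 to 81.9. Gcm1, a factor of labyrinth trophoblast, had 4 reads with GFP and 15 with SMC1. It had 22 and 3 reads with the CAPH2 hairpins and 7 and 15 with the SMC2 hairpins. The labels call these cells ESCs, and the ESC factor gene Pou5f1 had an RPKM of 785.0 with SMC1 and 1106.6 to 1285.5 in the other libraries.

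The epithelial genes and the other keratins went both ways with SMC1. Of 21 junction, polarity and transport genes of the trophectoderm 3 were higher and 2 lower with SMC1 (median -0.02). Aqp3, a water channel, went from an RPKM of 23.7 to 2.89 and the sodium pump subunit gene Atp1b1 from 50.1 to 18.8, while the desmosomal cadherin gene Dsc2 went from 0.800 to 2.21. Ezr, which links the membrane to actin, went from 158.9 to 99.4 and was not called. Of 13 other intermediate filament genes 3 were higher and 3 lower (median 0.46). Krt20, a type I keratin of simple epithelia, went from 0.578 to 3.15, while the type I keratins Krt17, from 13.7 to 3.34, and Krt42, from 15.6 to 1.88, were lower. Krt7, a further type II keratin of simple epithelia, had 3.14 and 5.94, a log2 change of 0.92 that was under the 2-fold limit. Vim, the mesenchymal filament gene, went from 214.8 to 295.9 and Lmnb1 from 291.5 to 275.9. The ratio of Krt8 to Vim RPKM was 0.397 in the SMC1 library and 0.167 to 0.239 in the other 5.

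Markers of other cell types moved in the same library. All 12 ESC markers were below GFP with SMC1, 8 of them at least 2-fold (median -1.54), and among these Esrrb went from an RPKM of 209.6 to 21.5, Klf4 from 78.5 to 9.23 and Tbx3 from 26.2 to 3.75. Of 17 markers of primitive and visceral endoderm, an epithelium that also makes Krt8, Krt18 and Krt19, 7 were higher and 2 lower (median 0.69), and Afp, Ttr and Apoa1 did not pass the count minimum. The summed RPKM of all 20 endoderm markers listed, those under the minimum included, was 469.2 with SMC1 and 256.1 to 308.6 in the other 5 libraries. The largest rise was that of the endocytic receptor gene Lrp2, from 6.55 to 60.4, and Sparc went from 171.2 to 276.6 and Lamb1 from 32.6 to 46.7. Foxa2 had 8 reads with GFP and 30 with SMC1, and Hnf4a, a defining factor of visceral endoderm, had 18 with GFP and 0 with SMC1. Of 9 fibroblast markers 5 were higher and 0 lower (median 1.13), and Dcn, Lum and Fap did not pass the minimum. The summed RPKM of all 12 fibroblast markers listed was 53.2 with GFP, 114.8 with SMC1 and 58.0 to 80.8 with condensin depletion. Col1a2 went from 12.3 to 33.2, Col1a1 from 20.8 to 39.4, Twist1 from 5.33 to 18.5 and Prrx1 from 0.571 to 2.04. The part of these cells in the keratin and Cdx2 values was not tested, and in bulk RNA more cells of a type and more RNA per cell cannot be told apart.

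**Figure D3:**
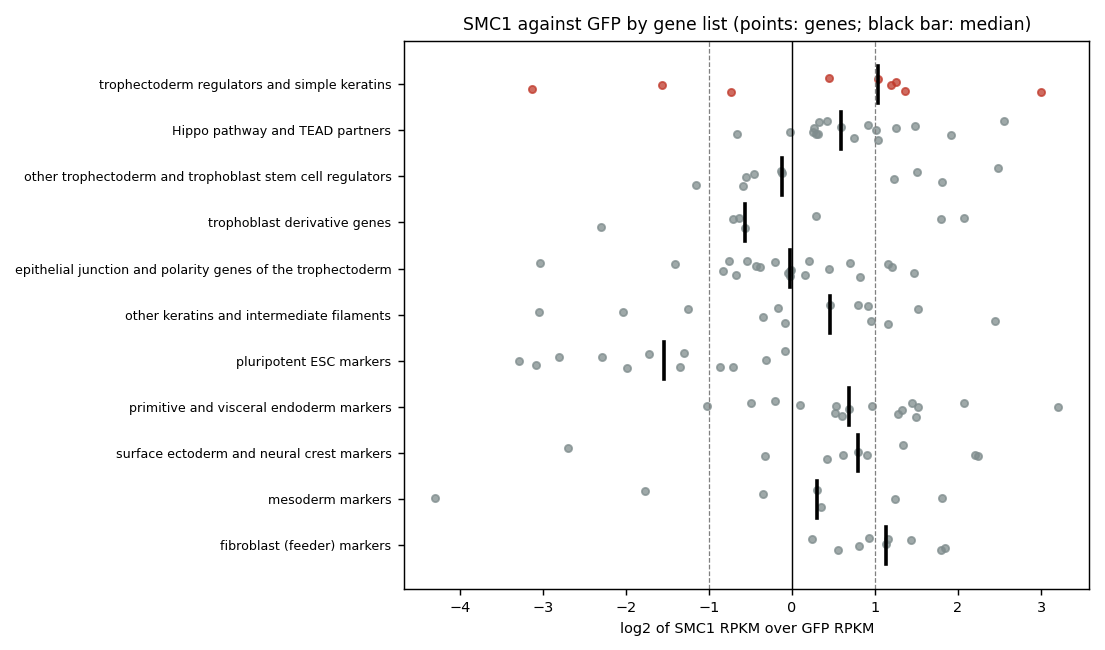
Points give the log2 of the SMC1 over the GFP RPKM (horizontal axis) for the genes of each list with a mean of at least 10 counts (vertical axis), black bars the medians, and dashed lines 2-fold. Hnf4a, at 0 reads with SMC1, has no point. The red points of the trophectoderm factors and keratins spread from -3.13 to 3.00 around a median of 1.04, while the ESC markers all lie below 0 and the fibroblast markers all above it.

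The genes whose pattern was most like that of each gene were found by the root mean square difference of the 5 log2 changes against GFP, among 12256 other genes with a mean of at least 50 counts. Since all of these changes share the GFP library, the likeness is a description. Nearest to Tfap2c were Ubash3a, Aqp3 and Esrrb, and nearest to Tead4 were Rtkn2, Isoc2a and Niban1. For Krt8 they were Anxa2, Krt18 and Tap2, for Krt18 they were Krt8, Anxa2 and Tinagl1, and for Krt19 they were Tnfaip3, Anxa2 and Krt8. Krt8 and Krt18 were thus among the 3 nearest of each other, and Anxa2 among the nearest of all 3 keratins. For Gata3 they were En1, Lipo3 and Sp5, for Tfap2a Kdr, Rnd1 and E430018J23Rik, and for Hand1 Zfp78, Dact1 and Itga10. The distances of all these genes were 0.06 to 0.16 on the log2 scale. Cdx2, with a mean of 47.5 counts, was under the minimum of this search.

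How the libraries are scaled bears on these directions. The ERCC synthetic RNAs, added for a fixed number of cells, took 0.948% of the counts in the SMC1 library and 1.72% in the GFP library. Scaling to them moved the median of all genes to 0.88 with SMC1 and 0.59 with SMC2 on the log2 scale. The CAPH2 hairpins differed in it, with a median of 0.64 for CAPH2 #1 (ERCC share 1.11%) and -0.06 for CAPH2 #2 (1.77%), and their average of 0.34 stands for neither. Under that scaling 6 of the 9 genes were at least 2-fold higher with SMC1, with Tfap2a added at 1.32, and 1 was lower, Tfap2c at -2.26. On this scale 89.5% of all genes lay above 0 with SMC1, and the share at least 2-fold higher was not computed. These counts therefore cannot be read beside the shares given for deposited RPKM. Tead4 was at -0.70 and no longer called. The ERCC-scaled keratin changes with SMC1 were 2.06 for Krt8, 2.22 for Krt18 and 1.90 for Krt19. For Tfap2c and Tead4 with SMC2 the direction turned to above 0, at 0.27 and 0.34, with both hairpins above 0. With CAPH2 #1 the ERCC-scaled log2 changes were 0.37 for Tfap2c, 0.02 for Tead4, 0.77 for Krt8, 0.82 for Krt18 and 0.72 for Krt19. With CAPH2 #2 the same genes stayed below 0, at -0.30, -0.33, -0.25, -0.21 and -0.30, so a turn of Tfap2c and Tead4 with CAPH2 rested on CAPH2 #1. Relative to the median of all genes in the same library, Tfap2c and Tead4 were negative with each of the 4 condensin hairpins, at -0.34 to -0.24 for Tfap2c and -0.62 to -0.21 for Tead4.

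**Figure D4:**
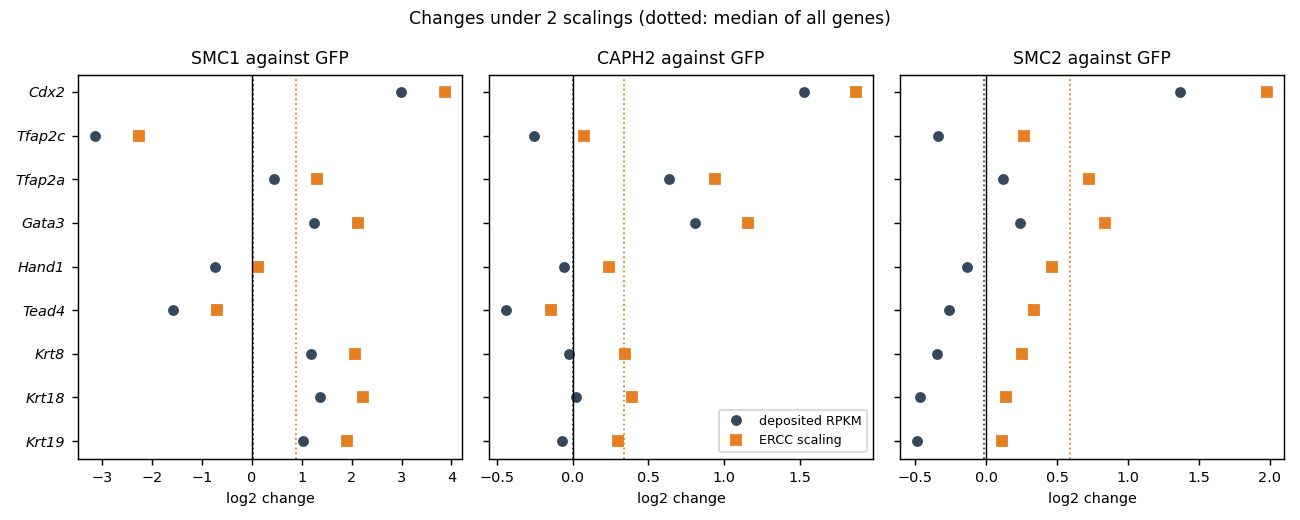
Each panel gives the log2 change against GFP (horizontal axis) of 9 genes (vertical axis) by deposited RPKM (circles) and scaled to the ERCC RNAs (squares), with dotted lines at the median of all genes. The squares lie to the right of the circles in all 3 panels, and Tfap2c with SMC1 stays below 0 under both scalings, at -3.13 and -2.26.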

How the data were processed

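The authors aligned RNA-seq reads with Bowtie to mm9, keeping reads with at most 2 places, and the deposited files give for each of 26073 RefSeq rows a whole-number count over its exons and an RPKM. The authors' RPKM divides this count by exon length and library reads and makes no use of the ERCC RNAs. The library kit does not mark strand, so reads of overlapping genes cannot be told apart. Replicates were not pooled. A read in a shared exon was counted for each isoform. Total counts were 25467427 to 31337313 per library. RNA of 6 libraries was analysed with 1 row per gene, and groups were taken from the sample titles. By accession 25353 rows received a symbol, 698 more received it through a GENCODE gene at the same place, and 22 had none.

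Changes were the log2 of RPKM over the GFP library with no pseudocount, for genes with a mean of at least 10 counts. With 1 GFP library they carry no test of their own, and a pooled-spread edgeR fit that assumes a spread for that library was an alternative. For CAPH2 and SMC2 the hairpins were averaged. CAPH2 was compared with SMC2 by edgeR 4.0.16 (quasi-likelihood, TMM, at least 10 counts in 2 libraries). In simulated counts for this comparison, over 14409 genes, 199 of 200 genes changed 2-fold were recovered, with 11 false calls among 210. The simulation gave every gene the same spread between libraries (coefficient of variation 0.068) and changed only genes above a count minimum. Real genes differ in their spread, so it does not show how often the test would find a 2-fold change in these libraries. DESeq2 1.42.0, other scalings, filters, a pseudocount of 1 RPKM, every RefSeq row, a replicate block, and leaving out each hairpin were further alternatives. Copies in mm9 were searched with blastn 2.17.0. Other steps used Python 3.11.15 and scipy 1.17.1. Few counts make Cdx2, Gata3, Tfap2a and Hand1 imprecise.

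The genes described and the gene lists were chosen with earlier results of these data known. Genes named from a list were those with the 3 largest absolute log2 changes with SMC1 and the 2 highest mean RPKM, with Krt7 and Vim. The 3 genes nearest in pattern were named for each gene with a mean of at least 50 counts. Genes named because they missed the count minimum were chosen after their values were seen. The values of 1 gene that this rule would name are not reported here.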

Additional observations from a re-analysis of the deposited data

Results flagged for a closer look

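SMC1 and SMC2 depletion left the 3 keratins on opposite sides of the GFP library. The log2 difference, SMC1 minus the mean of the SMC2 hairpins, was 1.54 for Krt8, 1.83 for Krt18 and 1.53 for Krt19, with the SMC1 library above and both SMC2 libraries below GFP for each gene. The difference was not tested, since the SMC1 and GFP libraries have no replicate. Of all 14334 genes 9.67% lay on these sides. Scaled to the ERCC RNAs the SMC2 changes were 0.25, 0.14 and 0.11, with Krt19 at -0.0045 for SMC2 #1, so the opposite sides depend on the scaling, while the SMC1 library stayed above both SMC2 libraries.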

How the results depend on the processing

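Against GFP, 7 of 9 genes were called with SMC1 and 5 to 7 under the other settings (9 of 12 rows over every RefSeq row), with 0 changes of direction among called genes. With a pseudocount of 1 RPKM 5 were called, Gata3 and Krt19 being lost and Cdx2 moving from 3.00 to 1.44, and with the study's minimum of 1 RPKM under GFP 5 of the 6 genes left. With the 4 condensin libraries as the reference, added after seeing the data, 6 were called. The pooled-spread edgeR fit, which assumes that the lone GFP and SMC1 libraries vary like the others, called the same 7 genes. With CAPH2 the 1 call became 2 under ERCC scaling (Gata3 added, which was past 2-fold with CAPH2 #1 but at a log2 change of 0.70 with CAPH2 #2). On that scale CAPH2 #1 alone gave 3 calls, with Tfap2a, and CAPH2 #2 alone 1, an alternative added after seeing the data. With ERCC scaling 85.7% of all genes lay above 0 with CAPH2, and the share called was not computed. The 1 call became 0 with the pseudocount and 0 with the RPKM minimum, which removes Cdx2. With SMC2 it became 0 with the pseudocount and 0 with that minimum, and in the pooled-spread fit the 1 call was Tfap2c, lower, at an adjusted p of 0.0476 (Cdx2 0.0656). Leaving out a hairpin by deposited RPKM kept 1 call for each target.

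For CAPH2 against SMC2 the 2 calls became 1 with RLE size factors, 6 with DESeq2, 7 with no filter, 1 over every RefSeq row and 1 to 326 when a hairpin was left out. Without CAPH2 #1 there were 23, without CAPH2 #2 326, which include the 3 keratins, without SMC2 #1 4 and without SMC2 #2 1. The cause was not tested. The replicate block gave 64 calls, with Krt8 (adjusted p = 0.0447) and Krt18 (adjusted p = 0.00021) among them. The numbers name different hairpins and do not pair the libraries, and the deviations of same-numbered libraries correlated at 0.050. Of 270 alternative values of single genes 220 were counted as the same and 45 as moved. A further 5 passed the threshold where the main value did not, and 0 reversed as called values. Changes against GFP counted as the same within their counting interval or the SD between hairpins. Differences of CAPH2 against SMC2 counted as the same where the call was kept. A moved value could keep its 2-fold call, as Krt8 and Krt18 did with SMC1 under ERCC scaling. Counts of 15 to 107 for Cdx2 limit the size of its folds.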

Other observations

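Lists of surface ectoderm and mesoderm markers, lineages that also use Tfap2a, Gata3 or Hand1, were measured in the same libraries. Over all genes 12.3% were at least 2-fold higher and 8.67% at least 2-fold lower with SMC1. Of 9 surface ectoderm and neural crest markers that passed the count minimum 3 were at least 2-fold higher and 1 lower with SMC1 (median log2 change 0.79). Grhl3, a factor of surface ectoderm, had an RPKM of 13.6 with GFP, 2.10 with SMC1 and 8.62 to 9.21 in the condensin libraries. Msx1 went from 1.20 to 5.55 with SMC1, Pax3 from 0.120 to 0.565 and Foxd3, which ESCs also make, from 18.3 to 14.6. Of 7 mesoderm markers 2 were higher and 2 lower (median 0.30). T, the brachyury gene, had 6.93 with GFP, 16.4 with SMC1, 13.3 and 15.2 with the CAPH2 hairpins and 10.2 and 8.84 with the SMC2 hairpins. Mesp1 had 66 reads with GFP and 3 with SMC1, and Tbx6 had 38 and 10.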
